A study of Homo sapiens with 17 samples.

Results

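This comparison sets the prostate cancer line LNCaP-abl (abl below) against its parent line LNCaP, with the transcription factor FOXA1 knocked down in both. It was chosen by label, from the siRNA and the line given for each sample, and it rests on 2 of the 17 samples of the series, with 4 of its 12 RNA libraries. LNCaP is an established human line of luminal prostate cancer that the labels call androgen dependent, and abl is an LNCaP subline that they call androgen independent. LNCaP was grown in medium with 10% fetal bovine serum at passages 32 to 34. The abl cells were grown in 10% charcoal-stripped serum, which is low in steroid hormones, at passages 62 to 64. Both lines were split every 2 days, and during treatment both stood in 5% charcoal-stripped serum. Each line received 40 nM of an siRNA against FOXA1 (siFOXA1) or of a control siRNA (siControl) for 3 days. The lines thus differ in passage and in serum before treatment as well as in androgen dependence, and these cannot be told apart here. The labels do not say whether the 2 libraries of a group came from separate cultures, so the p-values measure only the spread between these libraries, which may be technical.

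FOXA1 is a pioneer factor: it binds closed chromatin and opens it for other factors, and in luminal prostate cells it takes part in the gene programme that androgens drive. A line difference that is seen with the factor present can therefore be followed after its knockdown, to see which differences remain, which vanish and which appear only then. The series also knocked down CREB1, the cyclic-AMP response element binding protein. Those libraries enter the gene filter, the scaling, the mean level used to choose ranked genes and the estimate of the spread, but none of the line differences. No line difference was called for CREB1 itself, at 61.4 and 60.7 CPM in LNCaP and 60.4 and 56.1 CPM in abl under siFOXA1 (edgeR adjusted p = 0.555).

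RNA reads counted in genes ran from 9092597 to 37314039 per library over the 8 siControl and siFOXA1 libraries, with the second abl siControl library the shallowest. FOXA1, the targeted gene, stood at 215 and 211 CPM (read counts scaled to a common library size, with TMM factors) in the LNCaP siFOXA1 libraries and at 196 and 229 CPM in the abl siFOXA1 libraries, which overlap. Under siControl it stood at 799 and 695 CPM in LNCaP and 556 and 504 CPM in abl, so it fell in both lines to a like level from a higher start in LNCaP. The log2 line difference of FOXA1, abl minus LNCaP, was -0.49 ± 0.08 (SE) under siControl and -0.00 ± 0.08 under siFOXA1. All 8 luminal prostate markers checked had counts in each of these libraries, with a summed level of 3782 and 3902 CPM in LNCaP and 3097 and 3182 CPM in abl under siFOXA1. The neuroendocrine marker INSM1 and the fibroblast marker COL1A2 were at 0 in the 8 libraries, and the basal marker TP63 had 2 counts in all. Some other markers of these kinds had reads. Under siFOXA1 the fibroblast marker COL1A1 stood at 96.25 and 81.22 CPM in LNCaP and 13.55 and 16.67 CPM in abl. The neuroendocrine marker SYP stood at 1.855 and 1.682 CPM in LNCaP there, and the basal marker KRT14 at 1.012 and 0.7648 CPM. The endothelial gene VWF stood at 30.66 and 27.74 CPM in LNCaP under siControl. CSF3R and S100A8, neutrophil genes, stood at 2.74 and 0.722 CPM in the first LNCaP siControl library and 2.42 and 0.555 CPM in the first abl siControl library, against at most 0.223 and 0.0432 CPM in the others. S100A9, another neutrophil gene, stood at 2.239 and 2.444 CPM in those 2 libraries, but also at 2.487 to 4.411 CPM in the siFOXA1 libraries. The part of these neutrophil genes in the siControl results was not tested. Results without the first siControl libraries are given for only some of the genes and lists below.

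Under siFOXA1, 4691 of 15550 tested genes were higher in abl (30.2% of those tested) and 4799 were lower (30.9%), which means that they passed edgeR's quasi-likelihood test after Benjamini-Hochberg adjustment (adjusted p below 0.05, here called). In RNA from whole cultures, fewer cells of a type and less RNA per cell cannot be told apart. With a difference of at least 1 on the log2 scale as well, 1410 were higher (9.07%) and 1791 lower (11.5%). Under siControl, 4749 were higher (30.5%) and 5147 lower (33.1%). The difference between these line differences, tested as an interaction in the same fit, moved toward higher in abl for 2784 genes (17.9%) and toward lower for 2284 genes (14.7%). The median log2 line difference of all tested genes was 0.01 under siFOXA1 and -0.02 under siControl, and the median of the change was 0.05. Scaling to library size alone moved the siFOXA1 median by -0.13 and the share of calls that were higher from 49.4% to 37.7%, so the direction of a positive list median smaller than this shift may not hold. For the change, that scaling gave 2273 genes toward higher and 2716 toward lower, and the share of its calls toward higher went from 54.9% to 45.6%.

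Most large line differences remained after the knockdown. The siFOXA1 and siControl comparisons share no library. Of 3699 genes called at a log2 difference of at least 1 under siControl, 2917 (78.9%) were called in the same direction under siFOXA1. Of 3201 such genes under siFOXA1, 2591 (80.9%) were called in the same direction under siControl. Genes at that fold and direction in both numbered 2223, which is 60.1% of the siControl genes and 69.4% of the siFOXA1 genes. The 4633 genes past the fold in either condition were then sorted by the 3 tests. A total of 2058 (44.4%) kept their difference, meaning that both were called in 1 direction and the change was not. In 834 (18%) it narrowed and in 393 (8.48%) it widened, with the change called. It was lost in 338 (7.3%), called under siControl but not under siFOXA1, and gained in 199 (4.3%), called under siFOXA1 but not under siControl. In 169 (3.65%) it reversed sign with both called, and 642 (13.9%) fitted none of these. Lost differences were 204 higher and 134 lower in abl, gained ones 94 and 105, and reversed ones 58 and 111 by their direction under siFOXA1. In the lost genes the median absolute effect of siFOXA1 was 1.19 on the log2 scale in abl and 0.70 in LNCaP, and in the reversed genes 1.87 and 0.88. In the kept genes it was 0.53 and 0.50. The change of the line difference equals the abl effect minus the LNCaP effect, from the same libraries. The larger effects in lost and reversed genes thus follow in part from the sorting, and no conclusion is drawn from them.

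**Figure D1:**
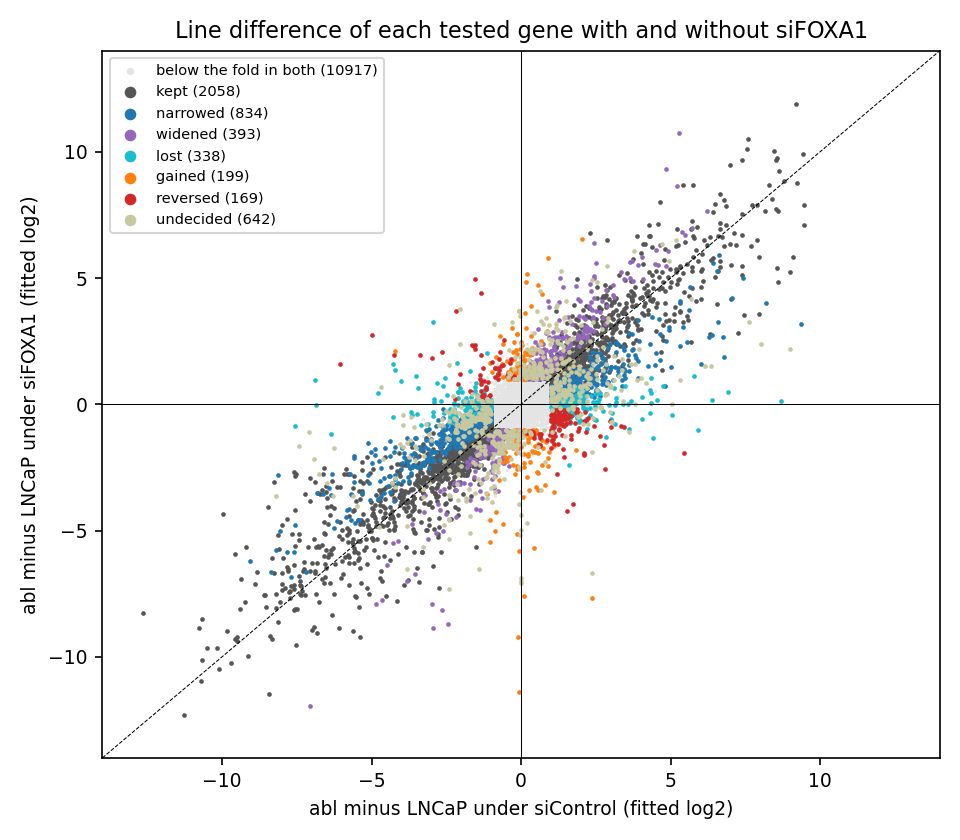
Each point is 1 of the 15550 tested genes, with its fitted log2 line difference (abl minus LNCaP) under siControl on the horizontal axis and under siFOXA1 on the vertical axis. Colours mark the classes, the dashed line marks equal differences, and the 2058 kept genes lie along it while the 169 reversed genes lie in the opposite quadrants.

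The genes most higher in abl under siFOXA1 include cancer-testis antigens, receptors and secreted ligands. PAGE1, a cancer-testis antigen gene, stood at 0.885 and 0.994 CPM in LNCaP and 190.5 and 192 CPM in abl. DOCK10, an exchange factor for small GTPases, stood at 1.39 and 0.88 CPM in LNCaP and 226 and 227 CPM in abl. OR51E2, a prostate-enriched olfactory receptor, stood at 4.55 and 4.86 CPM in LNCaP and 665 and 645 CPM in abl. Genes were ranked here only if no libraries of the 2 lines overlapped. For PAGE1, DOCK10 and OR51E2 the fitted log2 differences were 7.66 ± 0.10, 7.65 ± 0.17 and 7.12 ± 0.10. The coagulation initiator F3 (tissue factor) stood at 1.01 and 0.306 CPM in LNCaP and 70.0 and 74.7 CPM in abl, a log2 difference of 6.80 ± 0.21. The scaffold gene MPP1 stood at 7.80 and 8.83 CPM in LNCaP and 916 and 939 CPM in abl, and it rose with siFOXA1 in both lines, from 0.758 and 0.897 CPM in LNCaP and 115 and 114 CPM in abl. TMC5, of the transmembrane channel-like family, and CTAG2, a cancer-testis antigen with near-identical copies, differed by 6.65 ± 0.14 and 6.32 ± 0.14. The differences of WNT5A, NDP and GRIN2C widened. WNT5A, a non-canonical Wnt ligand, stood at 16.4 and 13.2 CPM in LNCaP and 384 and 374 CPM in abl under siControl, and 3.08 and 3.67 CPM in LNCaP and 264 and 270.5 CPM in abl under siFOXA1. NDP, the Frizzled ligand norrin, differed by 4.51 ± 0.14 under siControl and 6.10 ± 0.13 under siFOXA1, and the NMDA receptor subunit GRIN2C by 4.90 ± 0.12 and 6.06 ± 0.14. The change of the line difference was called for F3 at 1.43 ± 0.44 (edgeR adjusted p = 0.0244). Without the first LNCaP siControl library it was 1.02 (edgeR adjusted p = 0.264), and without the second LNCaP siFOXA1 library 0.76 (edgeR adjusted p = 0.151).

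The genes most lower in abl include extracellular matrix, axonal and synaptic genes. THBS1, the matrix glycoprotein thrombospondin 1, had the largest log2 difference among the genes ranked here, whose log2 CPM averaged 3 or more over the libraries. It stood at 28.8 and 24.9 CPM in LNCaP and 24.9 and 25.9 CPM in abl under siControl, and 672 and 488 CPM in LNCaP and 1.33 and 0.605 CPM in abl under siFOXA1. The lines overlapped under siControl and lay far apart under siFOXA1: THBS1 rose in LNCaP by 4.42 ± 0.15 and fell in abl by 4.71 ± 0.26 on the log2 scale. Its line difference went from -0.10 ± 0.16 to -9.23 ± 0.23, and the change of -9.13 ± 0.29 passed (edgeR adjusted p = 3.28e-10). LAMB2, a laminin chain of basement membranes, stood at 442 and 411 CPM in LNCaP and 0.689 and 0.778 CPM in abl, a difference of -9.17 ± 0.16. TMEFF2, a prostate-enriched transmembrane protein gene, stood at 138 and 162 CPM in LNCaP and 0.827 and 0.648 CPM in abl. It fell in both lines with siFOXA1, by 2.11 ± 0.12 in LNCaP and 2.04 ± 0.36 in abl, and the line difference was -7.72 before and -7.66 after. EFNB2, which encodes the membrane ligand ephrin-B2, and KIF1A, a kinesin of axonal transport, stood at 159 and 170.1 CPM in LNCaP and 1.10 and 0.778 CPM in abl and at 133 and 145 CPM in LNCaP and 1.24 and 0.734 CPM in abl. The collagen gene COL6A2 differed by -7.08 ± 0.14, TMEM205 by -6.79 ± 0.14 and the matrix gene SPON2 by -6.54 ± 0.22. SYT4, a synaptotagmin of vesicle release, rose in both lines and its difference narrowed from -7.68 ± 0.16 to -6.84 ± 0.12. The translation elongation factor EEF1A2 narrowed from -7.19 ± 0.15 to -6.62 ± 0.14. The change of SYT4 was 0.84 ± 0.24 (edgeR adjusted p = 0.0162), but 1.01 (edgeR adjusted p = 0.143) without the first abl siControl library and 0.74 (edgeR adjusted p = 0.0546) without the first abl siFOXA1 library. The change of EEF1A2 did not pass when any 1 of 6 libraries was left out, with an edgeR adjusted p from 0.0532 to 0.113.

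**Figure D2:**
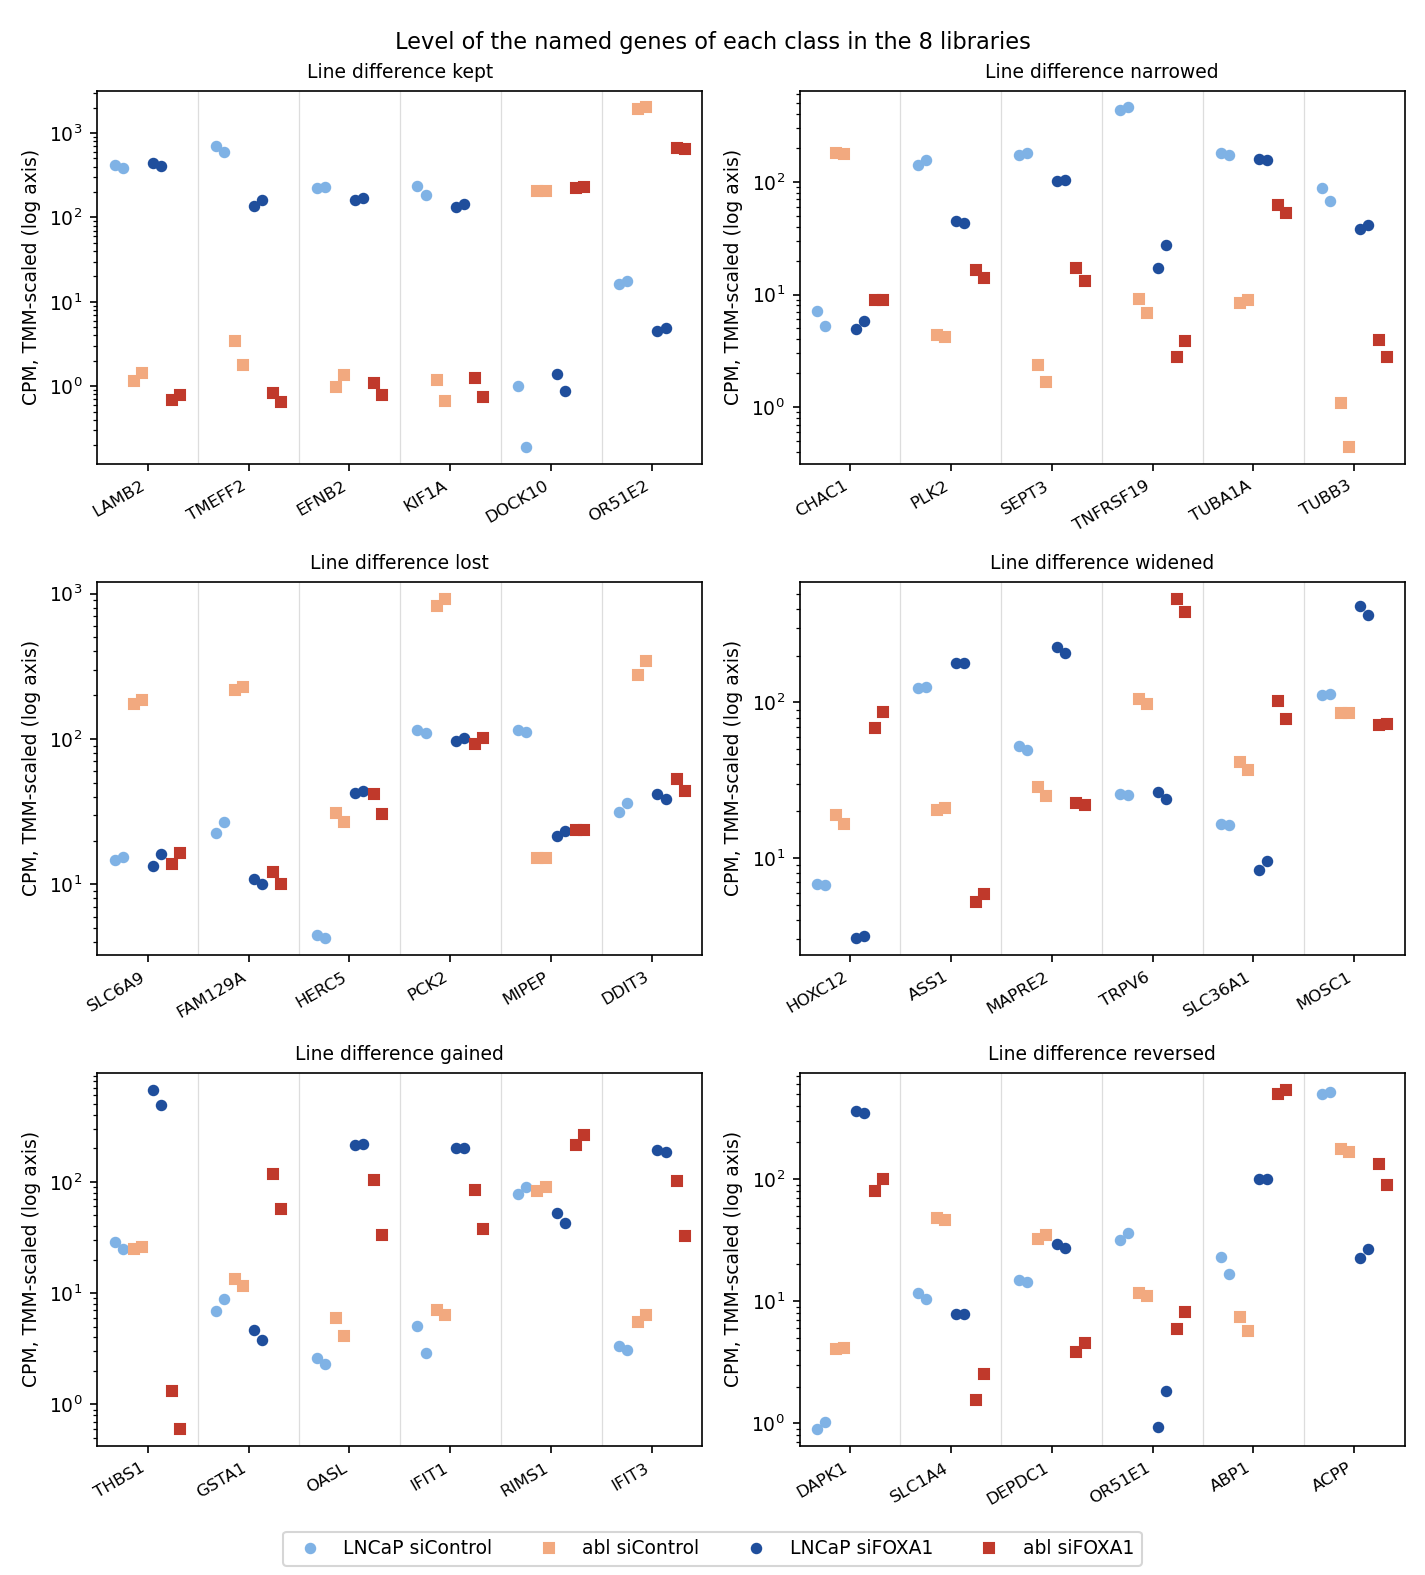
The level of the named genes of 6 classes in each of the 8 libraries, as TMM-scaled CPM on a log axis, with circles for LNCaP, squares for abl, pale symbols for siControl and dark symbols for siFOXA1. In the lost panel the dark circles and squares of each gene lie close together, for HERC5 near the pale squares and for SLC6A9 near the pale circles, and in the gained panel the dark symbols part.

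Among amino acid and protein folding stress genes, most of the line differences seen under siControl narrowed, vanished or reversed. These genes serve the integrated stress response, in which the factor ATF4 turns on amino acid synthesis and transport, and the unfolded protein response of the endoplasmic reticulum. Under siControl 44 of 45 were higher in abl and 0 lower, with a median log2 difference of 2.12. Under siFOXA1 20 were higher, 12 lower and 13 were not called, with a median of 0.12. The change was called toward lower for 43 and for 0 toward higher. With siFOXA1, 44 of the 45 fell in abl (26.5% of all tested genes did) and 0 rose (29.9% of all). In LNCaP 20 fell (25.5% of all) and 12 rose (24.4%). By class, 17 narrowed, 9 were lost, 6 reversed, 1 was kept and 1 was gained, and 11 stood below the fold in both conditions. The count lower under siFOXA1 was 7 without the second abl siFOXA1 library.

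CHAC1, which degrades glutathione, stood at 7.11 and 5.25 CPM in LNCaP and 180.2 and 177 CPM in abl under siControl, and 4.93 and 5.77 CPM in LNCaP and 8.96 and 8.90 CPM in abl under siFOXA1. Its line difference narrowed from 4.81 ± 0.13 to 0.73 ± 0.15, a change of -4.08 ± 0.20 (edgeR adjusted p = 1.4e-08). The abl level fell to near that of LNCaP, and the lines did not overlap, which the rule for naming narrowed genes required. The levels of DDIT3, the stress-induced factor CHOP, were 31.5 and 36.5 CPM in LNCaP and 275 and 344 CPM in abl under siControl, and 41.8 and 38.4 CPM in LNCaP and 52.8 and 43.8 CPM in abl under siFOXA1. PCK2, the mitochondrial phosphoenolpyruvate carboxykinase, stood at 115 and 109.8 CPM in LNCaP and 819.6 and 925 CPM in abl under siControl, and 97.3 and 102 CPM in LNCaP and 92.8 and 101 CPM in abl under siFOXA1. Both genes lost their difference, with 0.27 ± 0.12 (edgeR adjusted p = 0.0612) and -0.04 ± 0.07 (edgeR adjusted p = 0.651) left under siFOXA1. The DDIT3 value passed in 8 of the other settings, for example at 0.41 (edgeR adjusted p = 0.0182) without the second abl siFOXA1 library. SLC6A9, a glycine transporter, and FAM129A, a gene known to respond to stress, are outside the list and were lost in the same way. SLC6A9 stood at 174 and 186 CPM in abl under siControl and 13.8 and 16.4 CPM under siFOXA1, where LNCaP stood at 13.4 and 16.1 CPM. The FAM129A level in abl went from 218 and 226 to 12.1 and 9.98 CPM, against 10.9 and 10.0 CPM in LNCaP.

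Some stress genes ended lower in abl. SLC1A4, a neutral amino acid transporter, stood at 11.6 and 10.51 CPM in LNCaP and 47.9 and 46.7 CPM in abl under siControl, and 7.93 and 7.84 CPM in LNCaP and 1.56 and 2.55 CPM in abl under siFOXA1. It was higher in abl under siControl by 2.09 ± 0.12 and lower under siFOXA1, at -1.93 ± 0.17 (edgeR adjusted p = 2.72e-07). GDF15, a stress-induced cytokine that is also a p53 target, stood at 127 and 122 CPM in LNCaP and 30.9 and 15.8 CPM in abl under siFOXA1 and was lower in abl there by 2.42 ± 0.25, while under siControl its difference was -0.29 ± 0.22. SLC7A5, the large neutral amino acid transporter, remained far higher in abl. Its levels were 13.7 and 12.04 CPM in LNCaP and 1209 and 1240.3 CPM in abl under siControl, and 3.92 and 5.39 CPM in LNCaP and 174 and 194 CPM in abl under siFOXA1, and its difference narrowed from 6.56 ± 0.11 to 5.29 ± 0.12.

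The promoter of CHAC1 is shown because letters of the C/EBP-ATF response element, to which ATF4 is known to bind, lie in it. The letters TGATGNAAN were searched on both strands in the 250 bases before each RefSeq start in GRCh38.p14. They stood in 3.13% of all 35116 promoters and in 5 of the 58 promoters (8.62%) of 40 matched stress genes, and the other promoters do not hold these letters in this window. The CHAC1 stretch is chr15:40953221-40953470, plus strand, 5′ to 3′ in the direction of the gene, with the match in capitals, on the opposite strand and 210 bases before the start.
CHAC1: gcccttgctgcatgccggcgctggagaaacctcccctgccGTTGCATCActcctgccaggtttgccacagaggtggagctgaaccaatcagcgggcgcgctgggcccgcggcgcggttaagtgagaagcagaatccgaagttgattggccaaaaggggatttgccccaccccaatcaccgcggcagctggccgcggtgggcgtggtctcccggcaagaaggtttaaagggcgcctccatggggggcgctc

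Mitosis genes were higher in abl under siControl, and most of them were lower under siFOXA1. These genes encode the kinases, kinesins and kinetochore proteins that separate chromosomes, and their RNA is high in dividing cells. Under siControl 39 of 43 were higher in abl and 0 lower, with a median log2 difference of 1.14. Under siFOXA1 2 were higher and 25 lower, with a median of -0.44. For 41 the change was called toward lower and for 0 toward higher. With siFOXA1, 43 of 43 fell in abl (26.5% of all tested genes did) and 35 in LNCaP (25.5% of all). The median log2 effects were -2.24 and -0.63. By class, 16 reversed, 11 were lost, 2 narrowed and 1 was gained, and 13 stood below the fold in both.

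CDC25C, the phosphatase that activates the mitotic kinase, stood at 3.97 and 5.77 CPM in LNCaP and 13.4 and 17.7 CPM in abl under siControl, and 4.05 and 3.21 CPM in LNCaP and 1.29 and 1.47 CPM in abl under siFOXA1. NDC80, a kinetochore component, had levels of 11.95 and 10.6 CPM in LNCaP and 23.3 and 23.1 CPM in abl under siControl, and 8.39 and 9.10 CPM in LNCaP and 3.17 and 3.37 CPM in abl under siFOXA1. Abl was above LNCaP under siControl and below it under siFOXA1 for both genes, with no overlap. Their line differences went from 1.67 ± 0.20 to -1.39 ± 0.28 and from 1.03 ± 0.11 to -1.42 ± 0.13 (edgeR adjusted p of the changes = 1.61e-05 and 2.1e-07). DEPDC1, which is outside the list and is expressed in dividing cells, stood at 14.8 and 14.5 CPM in LNCaP and 32.6 and 35.1 CPM in abl under siControl, and 29.3 and 27.5 CPM in LNCaP and 3.81 and 4.54 CPM in abl under siFOXA1. It rose by 0.95 ± 0.12 in LNCaP and fell by 3.01 ± 0.14 in abl. TOP2A, the topoisomerase of dividing cells, and KIF2C, a microtubule-depolymerising kinesin, were picked after their values were seen. TOP2A went from 1.06 ± 0.14 to -1.36 ± 0.16 and KIF2C from 1.91 ± 0.16 to -1.06 ± 0.19. BUB1, a checkpoint kinase, and CENPE, a kinetochore motor, picked likewise, were the 2 members still higher in abl under siFOXA1, by 0.91 ± 0.14 and 0.50 ± 0.14, and 1 member was without the first LNCaP siFOXA1 library.

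Many mitotic promoters hold a cell cycle homology region, and the stretch before a CDC25C start is shown as an example. The letters TTTGAA, searched in the same way, stood in 13.3% of all promoters and in 22 of the 42 promoters (52.4%) of 35 matched mitosis genes. For CDC25C the match stood at 1 of 4 annotated starts, in chr5:138331805-138332054, minus strand, 30 bases before the start, and it is in capitals. No such letters stood before the NDC80 start.
CDC25C: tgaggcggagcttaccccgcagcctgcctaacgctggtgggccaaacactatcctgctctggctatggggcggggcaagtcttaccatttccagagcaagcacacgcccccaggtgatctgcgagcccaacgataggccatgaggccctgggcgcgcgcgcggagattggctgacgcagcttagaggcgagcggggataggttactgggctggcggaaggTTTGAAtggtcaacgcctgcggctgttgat

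DNA replication genes, which copy the genome in the preceding phase of the cycle, were mostly lower in abl after the knockdown. Of 43, 3 were higher (30.2% of all tested genes were) and 32 lower (30.9% of all) in abl under siFOXA1. Under siControl 7 were higher (30.5% of all) and 16 lower (33.1% of all). The medians were -0.48 under siFOXA1 and -0.19 under siControl, and 35 members stood below the fold in both conditions. The siControl count lower in abl was smaller without the first siControl library of both lines. Toward lower the change was called for 16 (14.7% of all) and toward higher for 1 (17.9% of all). The count toward lower was 10 without the first abl siControl library and 8 without the first siControl library of both lines. RFC3, a subunit of the clamp loader, stood at 14.6 and 16.1 CPM in LNCaP and 4.78 and 4.45 CPM in abl under siFOXA1 and its difference widened from -0.56 ± 0.13 to -1.74 ± 0.14. DTL, a substrate adaptor that helps limit replication to once per cycle, gained a difference, from 0.38 ± 0.20 to -1.31 ± 0.22. The replicative polymerase POLE, picked after its values were seen, went from 1.94 ± 0.09 to 0.16 ± 0.09.

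Among interferon-induced genes, line differences appeared or widened, with LNCaP as the higher line. These genes are turned on by type I interferon or by sensors of foreign RNA, through STAT and IRF factors, and many block viral RNA or protein synthesis. Under siControl 13 of 45 were higher in abl and 13 lower, with a median log2 difference of 0.01. Under siFOXA1 2 were higher and 39 lower, with a median of -1.65. It was toward lower that the change was called for 31, and for 0 toward higher. With siFOXA1, 44 rose in LNCaP (24.4% of all tested genes did) and 36 in abl (29.9% of all). The median log2 effects were 3.22 and 1.70. By class, 10 were gained, 6 widened, 6 reversed, 6 were kept, 3 were lost, 2 narrowed and 6 fitted no class, and 6 stood below the fold in both. The 2 abl siFOXA1 libraries differed in these genes: the first was the higher one for 41 of 45, with a median log2 ratio of 0.46, while in LNCaP siFOXA1 it was 23 of 45 and 0.00. Without the first of these libraries 41 members were lower in abl, and without the second 37.

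OASL, an antiviral protein of the oligoadenylate synthetase family, stood at 2.64 and 2.31 CPM in LNCaP and 5.92 and 4.12 CPM in abl under siControl, and 216 and 217 CPM in LNCaP and 104 and 33.0 CPM in abl under siFOXA1. IFIT1 and IFIT3, which act together to bind viral RNA, showed the same order. IFIT1 stood at 5.02 and 2.88 CPM in LNCaP and 7.08 and 6.35 CPM in abl under siControl, and 200.1 and 201 CPM in LNCaP and 83.9 and 37.6 CPM in abl under siFOXA1. The IFIT3 levels were 3.36 and 3.08 CPM in LNCaP and 5.50 and 6.35 CPM in abl under siControl, and 191 and 183 CPM in LNCaP and 102 and 32.6 CPM in abl under siFOXA1. Each of these genes rose in both lines, and the 2 abl siFOXA1 libraries lay apart from each other. LNCaP lay above both of them, where the rule for naming gained genes required that the lines not overlap. The line differences under siFOXA1 were -1.67 ± 0.35, -1.73 ± 0.24 and -1.48 ± 0.33 (edgeR adjusted p = 0.001, 2.75e-05 and 0.00139). The change passed for OASL at -2.78 ± 0.79 and for IFIT3 at -2.30 ± 0.70, but without the first abl siControl library the edgeR adjusted p was 0.23 for OASL and 0.113 for IFIT3, and without the first LNCaP siControl library it was 0.056 for IFIT3. HERC5, which attaches the ubiquitin-like modifier ISG15, rose in LNCaP and lost its line difference, with 4.44 and 4.29 CPM in LNCaP and 31.0 and 26.9 CPM in abl under siControl, and 42.7 and 44.2 CPM in LNCaP and 41.9 and 30.3 CPM in abl under siFOXA1. It was higher in abl by 2.74 ± 0.16 under siControl and its difference was -0.27 ± 0.12 under siFOXA1 (edgeR adjusted p = 0.0692), which missed the threshold. It passed at -0.51 (edgeR adjusted p = 0.00176) without the first abl siFOXA1 library, at -0.40 (edgeR adjusted p = 0.0087) with scaling to library size alone, and at -0.27 to -0.28 with the replicate block, upper-quartile scaling or no filter on low counts (edgeR adjusted p = 0.0256, 0.0456 and 0.0361). In those settings HERC5 would not count as lost. IFITM2, a membrane restriction factor, kept a difference of -3.70 ± 0.13. The chemokine CXCL10 stood at 20.2 and 16.1 CPM in LNCaP and 2.25 and 0.95 CPM in abl under siFOXA1 and at no more than 0.289 CPM in any siControl library.

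The interferon-stimulated response element, bound by IRF and STAT complexes, is shown in 3 promoters of genes whose line difference was gained or lost. The letters GAAA, any 2 bases and GAAA again, searched in the same way, stood in 3.02% of all promoters and in 27 of the 46 promoters (58.7%) of 35 matched interferon genes. The stretches are chr10:89392373-89392622, plus strand, for IFIT1, chr10:89327747-89327996, plus strand, for the upstream start of IFIT3, and chr4:88456869-88457118, plus strand, for HERC5, with the matches in capitals, on the opposite strand in each.
IFIT1: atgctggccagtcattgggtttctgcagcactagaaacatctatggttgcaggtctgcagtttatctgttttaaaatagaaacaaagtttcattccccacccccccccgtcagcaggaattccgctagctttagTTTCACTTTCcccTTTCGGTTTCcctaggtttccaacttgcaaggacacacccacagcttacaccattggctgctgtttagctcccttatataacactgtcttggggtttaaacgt
IFIT3: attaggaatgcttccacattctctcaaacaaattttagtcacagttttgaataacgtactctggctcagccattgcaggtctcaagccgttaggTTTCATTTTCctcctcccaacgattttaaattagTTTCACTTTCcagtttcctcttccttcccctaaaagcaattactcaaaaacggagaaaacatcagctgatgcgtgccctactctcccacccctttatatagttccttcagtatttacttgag
HERC5: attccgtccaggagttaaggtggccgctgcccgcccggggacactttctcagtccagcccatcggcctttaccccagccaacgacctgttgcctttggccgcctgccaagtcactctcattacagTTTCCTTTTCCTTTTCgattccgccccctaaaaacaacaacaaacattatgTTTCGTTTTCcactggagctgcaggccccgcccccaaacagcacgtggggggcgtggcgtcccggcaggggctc
IFIT1 and IFIT3 hold 2 matches each and HERC5 holds 3, 2 of which overlap, while the first 2 genes gained a line difference and HERC5 lost its own.

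Genes of MHC class I presentation, which loads peptides for T cells and is induced by interferon, also leaned toward LNCaP after the knockdown. Under siFOXA1 4 of 22 were higher in abl (30.2% of all tested genes were) and 11 lower (30.9% of all). Under siControl 10 were higher (30.5% of all) and 3 lower (33.1% of all). The medians were -0.24 under siFOXA1 and 0.23 under siControl. In 14 the change was called toward lower (14.7% of all) and in 1 toward higher (17.9% of all). With siFOXA1, 18 rose in LNCaP (24.4% of all tested genes did) and 8 in abl (29.9% of all). PSMB8, a subunit of the immunoproteasome, stood at 9.53 and 9.14 CPM in LNCaP and 0.598 and 0.0864 CPM in abl under siFOXA1, a difference of -4.78 ± 0.34. It was already lower in abl under siControl, at -3.07 ± 0.50, and its change was not called (edgeR adjusted p = 0.132). The HLA genes are near-identical, and the libraries of a group can differ widely: HLA-G stood at 9.06 and 0.497 CPM in LNCaP and 0.184 and 0.173 CPM in abl under siFOXA1, with 1 LNCaP library far above the other. The change of HLA-G was not called either (edgeR adjusted p = 0.255).

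**Figure D3:**
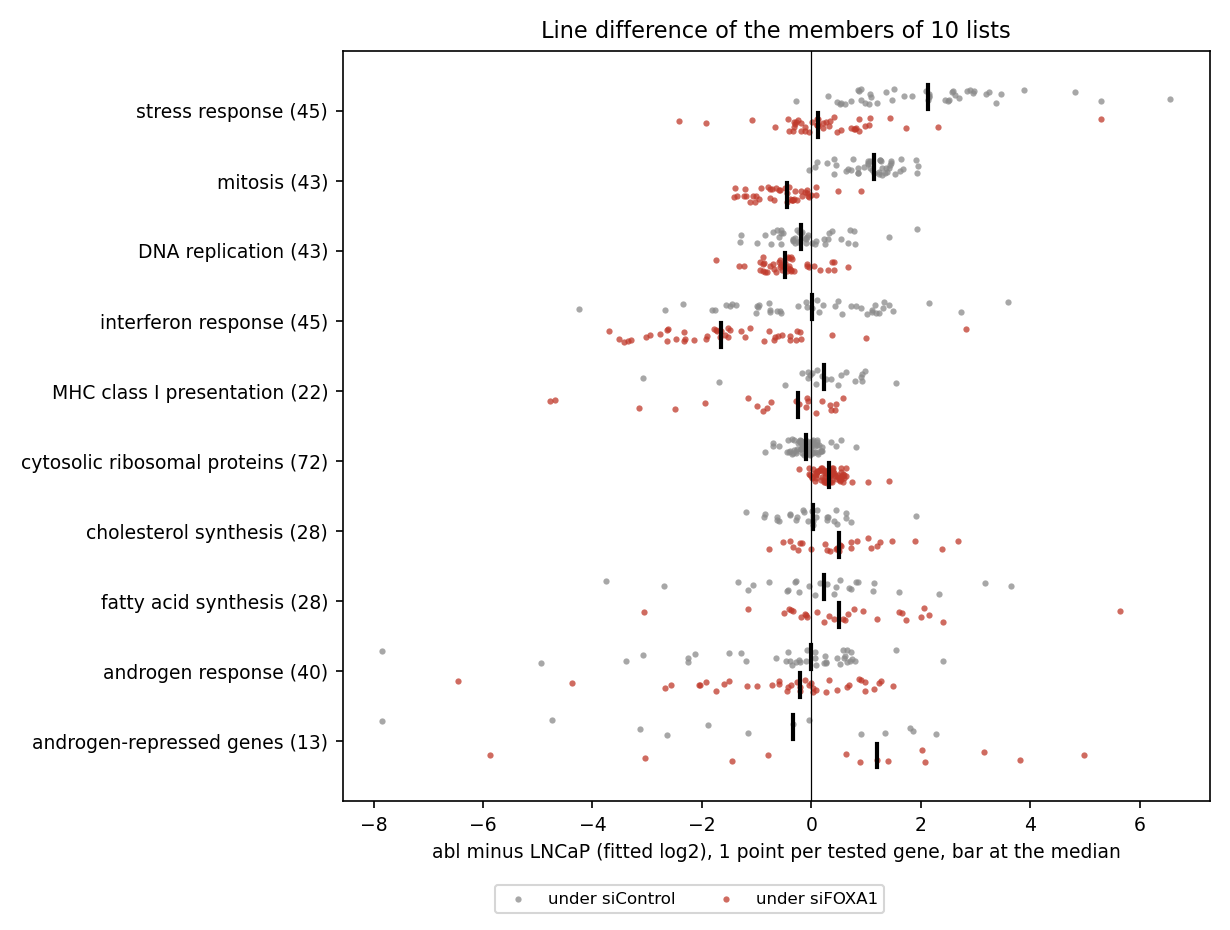
The line difference (abl minus LNCaP, fitted log2) of each tested member of 10 gene lists, in grey under siControl and in red under siFOXA1, with a black bar at the median of the list and the number tested in parentheses. The stress bar moves from 2.12 to 0.12, the mitosis bar from 1.14 to -0.44 and the interferon bar from 0.01 to -1.65.

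Ribosomal protein genes, highly expressed subunit genes of the translation machinery, mostly showed a small difference toward abl after the knockdown. Under siFOXA1 53 of 72 were higher in abl and 1 lower, with a median log2 difference of 0.33. Under siControl 8 were higher and 27 lower, with a median of -0.09. For 59 the change was called toward higher and for 0 toward lower. By class, 2 widened, and 70 stood below the fold in both conditions. With siFOXA1, 55 rose (29.9% of all tested genes did) and 2 fell (26.5% of all) in abl. In LNCaP 3 rose (24.4% of all) and 17 fell (25.5% of all). Under scaling to library size alone the siFOXA1 counts were 38 higher and 1 lower. Without the first LNCaP siFOXA1 library the change was called toward higher for 39, and the siControl count lower in abl was 16 without the first or without the second abl siControl library and 17 without any 1 of the 4 siFOXA1 libraries. The siControl count higher in abl was 4 without the first abl siControl library or with scaling to library size alone, and 5 without the second siControl library of abl or of LNCaP. The 2 widened members are RPL5 and RPL8. Under siFOXA1 RPL5 stood at 544 and 589 CPM in LNCaP and 1489 and 1526 CPM in abl and RPL8 at 1105 and 1187 CPM in LNCaP and 2300.2 and 2373 CPM in abl, differences of 1.41 ± 0.07 and 1.03 ± 0.08. Both were already higher in abl under siControl, by 0.81 ± 0.07 and 0.54 ± 0.08.

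Among lipid synthesis genes, changes of the line difference were called mostly toward abl. The 28 cholesterol genes make sterol from acetyl-CoA or control its uptake. Under siFOXA1 19 were higher in abl (30.2% of all tested genes were) and 6 lower (30.9% of all). Under siControl 9 were higher (30.5% of all) and 7 lower (33.1% of all). The medians were 0.50 under siFOXA1 and 0.02 under siControl. In 17 the change was called toward higher (17.9% of all) and in 2 toward lower (14.7% of all). ABCA1, the exporter of cholesterol to lipoproteins, stood at 4.17 and 5.16 CPM in LNCaP and 30.3 and 29.7 CPM in abl under siFOXA1, a difference of 2.68 ± 0.11. It was already higher in abl under siControl, by 1.92 ± 0.10, and it fell with siFOXA1 in both lines. HMGCS1 and SQLE, enzymes of the pathway picked after their values were seen, went from -0.06 ± 0.09 to 1.03 ± 0.09 and from 0.63 ± 0.09 to 1.20 ± 0.09. SC4MOL, a demethylase of the pathway, stood at 60.8 and 65.8 CPM in LNCaP and 180.3 and 171 CPM in abl, and its difference went from 0.30 ± 0.06 to 1.47 ± 0.06. Of 28 fatty acid genes 16 were higher and 4 lower under siFOXA1, against 15 and 9 under siControl, with the change called toward higher for 17 and toward lower for 3. FASN, the fatty acid synthase, picked in the same way, was lower in abl by 0.78 ± 0.21 under siControl and higher by 1.21 ± 0.22 under siFOXA1. PLIN2, which coats lipid droplets, stood at 0.169 and 0.268 CPM in LNCaP and 12.04 and 10.6 CPM in abl under siFOXA1, and was already higher in abl under siControl, by 3.65 ± 0.22. The desaturase SCD5 stood at 32.4 and 29.9 CPM in LNCaP and 3.81 and 3.67 CPM in abl under siFOXA1. It was lower in abl in both conditions, at -3.76 ± 0.12 under siControl and -3.06 ± 0.12 under siFOXA1. The change of PLIN2, 2.00 ± 0.45, was 1.33 without the first LNCaP siControl library (edgeR adjusted p = 0.16).

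**Figure D4:**
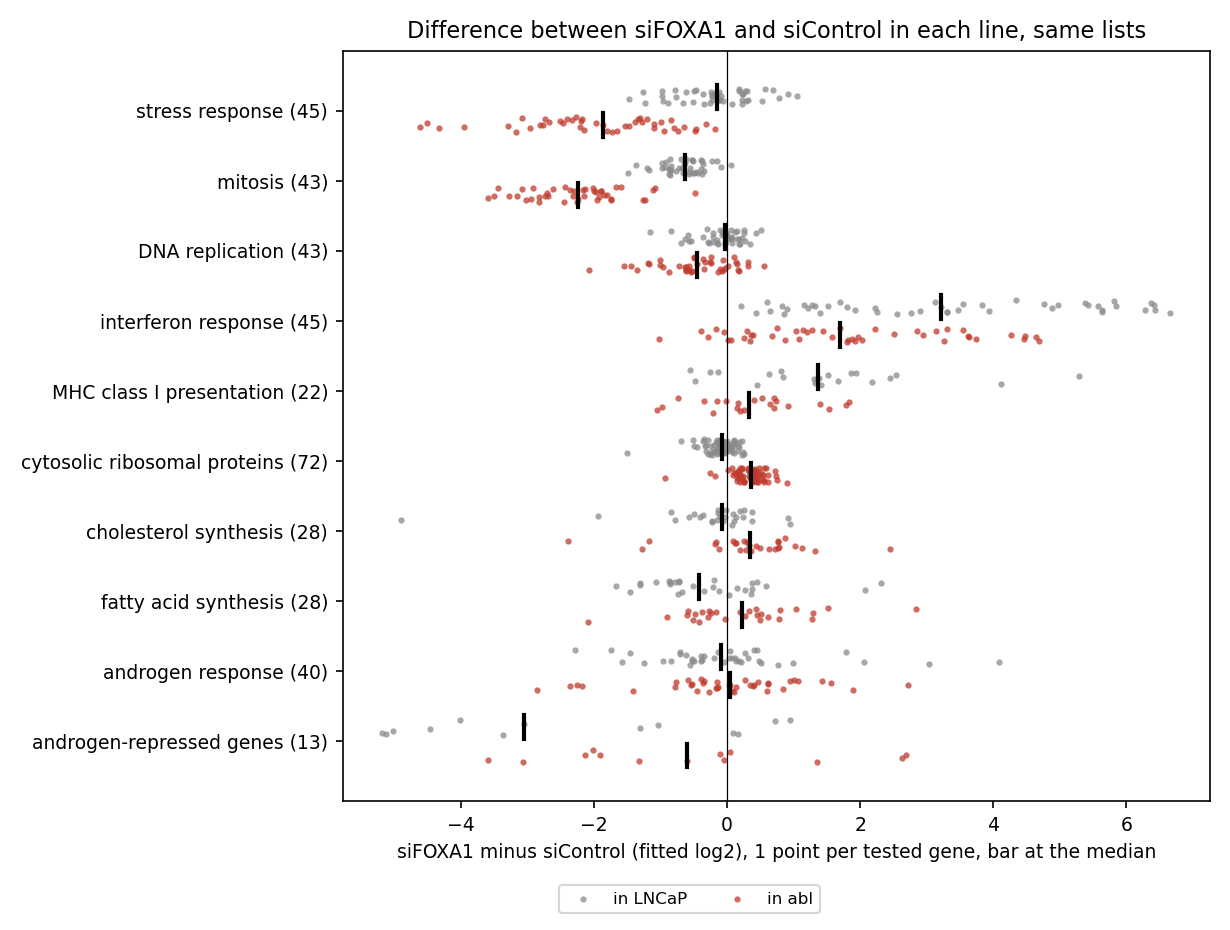
The log2 difference between siFOXA1 and siControl of each tested member of the same 10 lists, in grey for LNCaP and in red for abl, with a black bar at the median. The mitosis bar lies at -0.63 in LNCaP and -2.24 in abl, the stress bar at -0.16 and -1.86, and the interferon bar at 3.22 and 1.70.

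Androgen response genes lay on both sides. Of 40 androgen response genes, 12 were higher (30.2% of all tested genes were) and 19 lower (30.9% of all) in abl under siFOXA1. Under siControl 14 were higher (30.5% of all) and 15 lower (33.1% of all). Changes were called for 13 toward higher (17.9% of all) and 13 toward lower (14.7% of all). KLK3, which encodes prostate-specific antigen, stood at 70.6 and 73.9 CPM in LNCaP and 0.361 and 0.111 CPM in abl under siControl, and 61.8 and 87.4 CPM in LNCaP and 0.689 and 0.994 CPM in abl under siFOXA1. It kept its difference, -6.45 ± 0.31 under siFOXA1. MAF, a leucine zipper factor, kept its own at -4.38 ± 0.19. TMPRSS2, an androgen-driven protease gene picked after its values were seen, stood at 76.7 and 75.3 CPM in LNCaP and 88.3 and 68.9 CPM in abl under siControl, and 66.9 and 71.7 CPM in LNCaP and 168 and 166 CPM in abl under siFOXA1, and its difference went from 0.07 ± 0.09 to 1.27 ± 0.09.

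Genes that androgen represses lay on the abl side after the knockdown. Of 13, 8 were higher (30.2% of all tested genes were) and 3 lower (30.9% of all) in abl under siFOXA1. Under siControl 5 were higher (30.5% of all) and 6 lower (33.1% of all). The medians were 1.20 under siFOXA1 and -0.34 under siControl. Changes were called toward higher for 7 (17.9% of all) and toward lower for 0 (14.7% of all). With siFOXA1, 8 fell in LNCaP (25.5% of all tested genes did) and 6 in abl (26.5% of all). Members of the UGT2B family, which conjugate androgens and have near-identical copies, make up part of this list. UGT2B17 stood at 3.50 and 3.27 CPM in LNCaP and 11.8 and 13.4 CPM in abl under siControl, and 0.0843 and 0.115 CPM in LNCaP and 3.45 and 3.20 CPM in abl under siFOXA1. UGT2B10 stood at 4.08 and 3.08 CPM in LNCaP and 18.8 and 16.2 CPM in abl under siControl, and 0.0843 and 0.115 CPM in LNCaP and 2.02 and 0.95 CPM in abl under siFOXA1. Both genes fell in both lines and were higher in abl in both conditions, and the change was not called (edgeR adjusted p = 0.07 and 0.277). That of UGT2B17 passed with no filter on low counts (edgeR adjusted p = 0.00608) and with only the 8 siControl and siFOXA1 libraries (edgeR adjusted p = 0.000322). BCHE, a cholinesterase, remained far lower in abl, at 566 and 494 CPM in LNCaP and 9.65 and 8.51 CPM in abl, a difference that narrowed from -7.84 ± 0.14 to -5.87 ± 0.10. Of 26 steroid-metabolising enzymes 11 were higher and 4 lower under siFOXA1, against 8 and 7 under siControl, and the change was called toward higher for 6 and toward lower for 4.

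Steroid receptor genes lay on both sides. Of 20, 8 were higher (30.2% of all tested genes were) and 8 lower (30.9% of all) under siFOXA1. Under siControl 9 were higher (30.5% of all) and 8 lower (33.1% of all). The change was called toward higher for 1 (17.9% of all) and toward lower for 3 (14.7% of all). NR3C1, the glucocorticoid receptor, stood at 2.06 and 1.60 CPM in LNCaP and 88.4 and 105 CPM in abl under siControl, and 8.68 and 6.96 CPM in LNCaP and 194.5 and 200.3 CPM in abl under siFOXA1. It rose with siFOXA1 in both lines, and its difference was 5.66 ± 0.15 and then 4.66 ± 0.11. ESR1, the estrogen receptor, stood at 0.0843 and 0.0382 CPM in LNCaP and 3.08 and 2.59 CPM in abl, few reads that gave 5.44 ± 0.52. Of 26 genes of the FOXA family and its partner factors, 7 were higher (30.2% of all) and 9 lower (30.9% of all) under siFOXA1. Under siControl 9 were higher and 11 lower, and the change was called for 6 in each direction. The ETS factor ETV1 stood at 414 and 413 CPM in LNCaP and 0.414 and 0 CPM in abl and SOX9, a factor of epithelial progenitors, at 38.6 and 40.5 CPM in LNCaP and 2.67 and 2.38 CPM in abl, and both kept their differences. Of 26 luminal identity genes 9 were higher and 11 lower in both conditions, and the change was called toward higher for 6 and toward lower for 5, with the tight-junction gene CLDN3 at 63.4 and 61.9 CPM in LNCaP and 2.39 and 1.99 CPM in abl.

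Among the reversed genes, DAPK1, a death-associated kinase, rose in both lines from near silence. It stood at 0.903 and 1.02 CPM in LNCaP and 4.03 and 4.12 CPM in abl under siControl, and 364 and 345 CPM in LNCaP and 79.7 and 100.02 CPM in abl under siFOXA1, so abl was the higher line before and the lower one after, at 2.09 ± 0.25 and -1.98 ± 0.09. ABP1, the diamine oxidase gene, also rose in both lines but more in abl, and stood at 22.8 and 16.8 CPM in LNCaP and 7.45 and 5.68 CPM in abl under siControl, and 100.1 and 101 CPM in LNCaP and 494 and 540.5 CPM in abl under siFOXA1. Its difference went from -1.54 ± 0.15 to 2.36 ± 0.10. ACPP, prostatic acid phosphatase, and the olfactory receptor OR51E1 fell in both lines, and further in LNCaP. ACPP stood at 500.4 and 514 CPM in LNCaP and 178 and 168 CPM in abl under siControl, and 22.6 and 26.6 CPM in LNCaP and 133 and 89.9 CPM in abl under siFOXA1. OR51E1 fell by 4.60 ± 0.28 in LNCaP and 0.69 ± 0.24 in abl. ADM, a vasodilator peptide induced by low oxygen, went from -2.03 ± 0.18 to 1.20 ± 0.20.

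The gained genes GSTA1 and RIMS1 were higher in abl under siFOXA1. GSTA1, a glutathione transferase with near-identical copies, stood at 6.93 and 8.84 CPM in LNCaP and 13.3 and 11.5 CPM in abl under siControl, and 4.64 and 3.82 CPM in LNCaP and 116.5 and 56.4 CPM in abl under siFOXA1, with the 2 abl siFOXA1 libraries apart from each other. RIMS1, which organises presynaptic release sites, stood at 78.3 and 89.9 CPM in LNCaP and 82.9 and 90.5 CPM in abl under siControl, and 51.9 and 42.9 CPM in LNCaP and 214 and 264 CPM in abl under siFOXA1. It rose in abl and fell in LNCaP, and its difference went from 0.04 ± 0.11 to 2.34 ± 0.11 (edgeR adjusted p of the change = 2.01e-07). MIPEP, a mitochondrial peptidase, was the only 1 of the 6 named lost genes that was lower in abl under siControl. It stood at 115 and 112 CPM in LNCaP and 15.2 and 15.3 CPM in abl under siControl, and 21.5 and 23.3 CPM in LNCaP and 23.8 and 23.6 CPM in abl under siFOXA1, so LNCaP fell to the abl level.

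The widened genes moved in both directions. HOXC12, a posterior homeobox gene, stood at 6.79 and 6.73 CPM in LNCaP and 18.8 and 16.6 CPM in abl under siControl, and 3.08 and 3.14 CPM in LNCaP and 68.9 and 87.3 CPM in abl under siFOXA1, falling in LNCaP and rising in abl. TRPV6, an epithelial calcium channel, rose in abl to 465 and 384 CPM from 105 and 97.8 CPM, while LNCaP stood at 26.4 and 23.9 CPM. SLC36A1, a proton-coupled amino acid transporter, had a difference of 3.32 ± 0.12 under siFOXA1, against 1.27 ± 0.12 under siControl. MOSC1, a mitochondrial molybdenum enzyme, stood at 112 and 113 CPM in LNCaP and 85.1 and 85.7 CPM in abl under siControl, and 415 and 362 CPM in LNCaP and 71.7 and 72.5 CPM in abl under siFOXA1. Its difference widened from -0.40 ± 0.07 to -2.43 ± 0.07. ASS1, the argininosuccinate synthase that makes arginine, stood at 179.6 and 179 CPM in LNCaP and 5.24 and 5.88 CPM in abl and was lower in abl by 5.01 ± 0.08. MAPRE2, a protein of growing microtubule ends, rose in LNCaP to 229 and 208 CPM and stood at 22.7 and 21.8 CPM in abl.

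Among the named narrowed genes, the tubulin gene TUBA1A stood at 182 and 175 CPM in LNCaP and 8.47 and 8.92 CPM in abl under siControl, and 161 and 158 CPM in LNCaP and 62.6 and 53.5 CPM in abl under siFOXA1, and the neuronal tubulin TUBB3 rose in abl and fell in LNCaP, from a difference of -6.37 ± 0.21 to -3.58 ± 0.17. Tubulin genes are near-identical in parts, which leaves their counts uncertain. The septin gene SEPT3 stood at 173 and 182 CPM in LNCaP and 2.36 and 1.67 CPM in abl under siControl, and 103 and 105 CPM in LNCaP and 17.1 and 13.3 CPM in abl under siFOXA1. PLK2, a polo-like kinase, narrowed from -5.10 ± 0.13 to -1.53 ± 0.11. The TNF-family receptor TNFRSF19 fell in both lines, in LNCaP from 439 and 459 to 17.1 and 27.5 CPM and in abl from 9.06 and 6.91 to 2.76 and 3.89 CPM.

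Growth factor and morphogen genes lay on both sides. Of 33 TGF-beta, BMP and ID genes, 14 were higher (30.2% of all tested genes were) and 9 lower (30.9% of all) under siFOXA1. Under siControl 14 were higher (30.5% of all) and 12 lower (33.1% of all). A difference was kept in 11, and the change was called for 8. The ligand BMP2 stood at 0.0843 and 0 CPM in LNCaP and 52.8 and 42.2 CPM in abl and the receptor BMPR1B at 75.2 and 78.0 CPM in LNCaP and 0.0919 and 0.0864 CPM in abl. Of 30 growth factor receptors and ligands, 12 were higher and 11 lower, against 13 and 11, with the change called toward higher for 5 and toward lower for 9. The receptor tyrosine kinase RET stood at 3.63 and 2.94 CPM in LNCaP and 0 and 0.0864 CPM in abl. IGFBP6, which binds insulin-like growth factor, stood at 1.69 and 1.42 CPM in LNCaP and 0 and 0.0432 CPM in abl, and its called change did not pass without the first abl siControl library (edgeR adjusted p = 0.961) or without the first LNCaP siControl, LNCaP siFOXA1 or abl siFOXA1 library (edgeR adjusted p from 0.0505 to 0.0635). Glutathione transferases and detoxification genes were 18 higher and 4 lower of 29 under siFOXA1, against 14 and 7, with the change called toward higher for 10 and toward lower for 5. Among them were GSTM4 at 0.126 and 0.0382 CPM in LNCaP and 5.10 and 4.23 CPM in abl and GSTT2 at 0.843 and 0.918 CPM in LNCaP and 0 in abl. Against a floor of 3 counts over both abl libraries, GSTT2 was at least 13.2-fold lower.

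Markers of other cell states lay on both sides. Of 17 neuroendocrine genes 7 were higher (30.2% of all tested genes were) and 5 lower (30.9% of all) under siFOXA1. Under siControl 6 were higher (30.5% of all) and 6 lower (33.1% of all). The change was called for 5 toward higher (17.9% of all) and 4 toward lower (14.7% of all). The list includes the adhesion molecule NCAM1 at 0.253 and 0.229 CPM in LNCaP and 49.0 and 46.1 CPM in abl. Of 19 mesenchymal and migration genes 3 were higher and 7 lower, against 2 and 7, with the change called toward higher for 3 and toward lower for 4. MSN, which links the membrane to actin, stood at 106 and 110.2 CPM in LNCaP and 0.046 and 0 CPM in abl, with 1 count in the abl group, and its called change of the line difference did not pass without the first abl siControl library (edgeR adjusted p = 0.445). TWIST1, a mesenchymal factor, stood at 5.65 and 7.04 CPM in LNCaP and 0 in abl, at least 95-fold lower. Of 13 basal epithelial genes 2 were higher and 7 lower, against 3 and 2, and of 10 keratins 2 and 6, against 1 and 3. The change was called toward lower for 4 basal genes and 1 keratin and toward higher for 0. The basal keratin KRT17, the low-affinity neurotrophin receptor NGFR and KRT16 stood at 2.45 and 1.91, 1.64 and 1.84 and 2.19 and 1.42 CPM in LNCaP and at no more than 0.0919 CPM in abl. The 3 defining basal markers KRT5, KRT14 and TP63 summed to 1.10 and 0.803 CPM in LNCaP and 0.138 and 0.216 CPM in abl under siFOXA1, and their part in this was not tested. Of 11 S100 genes 4 were higher and 3 lower, against 4 and 1, with the change called for 1 toward higher and 3 toward lower. S100P, a calcium-binding protein, narrowed from 6.28 ± 0.22 to 2.66 ± 0.68, and the latter did not pass at 1.85 without the first abl siFOXA1 library (edgeR adjusted p = 0.0666). The change of S100P did not pass without the second LNCaP siFOXA1 library (edgeR adjusted p = 0.388). The S100P level fell with siFOXA1 in abl, from 48.3 and 57.8 to 0.781 and 0.302 CPM, and few reads remained. In LNCaP it went from 0.65 and 0.705 to 0.0422 and 0.115 CPM. S100A16 kept a difference of -1.70 ± 0.28.

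Of 20 cancer-testis antigens 11 were higher (30.2% of all tested genes were) and 3 lower (30.9% of all) under siFOXA1. Under siControl 10 were higher (30.5% of all) and 5 lower (33.1% of all). The change was called for 3 toward higher (17.9% of all) and 3 toward lower (14.7% of all). The list includes MAGEC2 at 2.36 and 2.103 CPM in LNCaP and 0 and 0.0432 CPM in abl. Of 34 hypoxia and glycolysis genes 18 were higher and 8 lower, against 12 and 15, with the change called toward higher for 16 and toward lower for 6. PFKP, a platelet phosphofructokinase, went from -1.67 ± 0.09 to -1.30 ± 0.09, a change that did not pass without any 1 of 6 of the 8 libraries (edgeR adjusted p from 0.0552 to 0.209). Of 26 p53 targets 7 were higher and 13 lower, against 12 and 6, and the change was called toward lower for 11 and toward higher for 3. BBC3, the death-promoting p53 target PUMA, stood at 20.1 and 21.0 CPM in LNCaP and 5.29 and 3.80 CPM in abl and was lower in abl by 2.18 ± 0.19, against 0.50 ± 0.20 under siControl.

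Of 7 fibroblast markers 2 were higher (30.2% of all tested genes were) and 4 lower (30.9% of all) under siFOXA1. Under siControl 0 were higher (30.5% of all) and 3 lower (33.1% of all). The change was called for 1 in each direction. Among them MGP, a matrix protein that binds calcium, stood at 17.7 and 10.7 CPM in LNCaP and 0 in abl under siFOXA1, at least 213-fold lower, and at no more than 0.0641 CPM in any siControl library. The called change of MGP did not pass without the first abl siControl library (edgeR adjusted p = 1). COL5A1, a fibrillar collagen, stood at 24.9 and 20.7 CPM in LNCaP and 0.046 and 0.0432 CPM in abl. The 4 defining fibroblast markers summed to 96.3 and 81.3 CPM in LNCaP and 13.6 and 16.7 CPM in abl, nearly all from COL1A1, with COL1A2 at 0, and their part in this was not tested. Blood and endothelial markers were 2 higher and 1 lower of 6, against 3 and 1, and the change was called toward higher for 1. They include the leukocyte gene PTPRC at 0 in LNCaP and 0.689 and 0.259 CPM in abl, at least 7.89-fold higher, and the endothelial gene VWF at 2.61 and 2.37 CPM in LNCaP and 0.184 and 0.389 CPM in abl. The called change of VWF did not pass without the second LNCaP siFOXA1 library (edgeR adjusted p = 0.0567) or the second abl siFOXA1 library (edgeR adjusted p = 0.34). Neutrophil markers were 1 higher and 1 lower of 6, against 0 and 1. By edgeR the change was called for 0 of them.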

How the data were processed

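The authors deposited raw read counts per gene. The submitters' processing notes name the build hg19 and the tools HTSeq 0.5.3p9, Bowtie2 2.1.0, TopHat2 2.0.8 and CASAVA 1.8. Which annotation was counted, and with which strand setting, is not given in the sources used here. Libraries from the kit that the labels name carry no strand information, which leaves antisense and overlapping genes uncertain, as are near-identical families. Count columns ending in 1 and 2 were taken as 2 libraries, and SIC was read as siControl. The 8 repeated control columns were identical and used once. Over these 8 libraries 54.8% to 58.3% of counted reads fell in no feature and 0.77% to 0.89% were ambiguous, and both were left out.

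edgeR's filterByExpr kept 15550 of 23230 genes. The fit held the 12 libraries as 6 groups of 2 (edgeR 4.0.16, R 4.3.3, TMM, quasi-likelihood F-test, 6 residual degrees of freedom, common coefficient of variation 0.0625), tested on simulated data first. Adjusted p-values are Benjamini-Hochberg over all tested genes, called below 0.05. The SE is the absolute log2 difference over the square root of F, and is only approximate at few counts. A fold against 0 counts is a lower bound from a floor of 3 counts over the group, covering counting error only. DESeq2 1.42.0 was an alternative.

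The comparison and the 28 gene lists were chosen with earlier results of these data known. Named genes are FOXA1 and CREB1, the 10 most higher and 10 most lower under siFOXA1 (mean log2 CPM of at least 3, libraries apart between lines), the 6 of each class with the largest change (for kept, the largest difference under siFOXA1), and the 2 called members with the largest difference of each list with at least 3 called. Class genes also had libraries apart, under siControl for lost genes. Some genes that the rule names are not reported here, and where it ranks genes the next took the place. Peak lists and the authors' knockdown tables were not used here. Promoters are RefSeq, GRCh38.p14, matched by symbol.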

Additional observations from a re-analysis of the deposited data

Results flagged for a closer look

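The line difference itself differed between siFOXA1 and siControl for 5068 genes in edgeR's test of that difference, at an adjusted p below 0.05. Values below are that change on the log2 scale, siFOXA1 minus siControl, for the named genes that passed. The change was toward abl for OR51E1 by 3.91, ABP1 by 3.90, ACPP by 3.73, GSTA1 by 3.64, PLK2 by 3.57, SEPT3 by 3.55, HOXC12 by 3.24, ADM by 3.23, TNFRSF19 by 2.99 and MIPEP by 2.98. It was also toward abl for TUBA1A by 2.92, TUBB3 by 2.79, VWF by 2.49, RIMS1 by 2.30, TRPV6 by 2.097, SLC36A1 by 2.06, PLIN2 by 2.00, BCHE by 1.98, WNT5A by 1.64 and NDP by 1.59. Smaller changes toward abl were those of PAGE1 by 1.44, F3 by 1.43, SC4MOL by 1.17, GRIN2C by 1.16, SYT4 by 0.84, ABCA1 by 0.76, SCD5 by 0.71, RPL5 by 0.60, EEF1A2 by 0.56 and FOXA1 by 0.49. The smallest ones called toward abl were RPL8 by 0.49 and PFKP by 0.38. The change was toward LNCaP for THBS1 by -9.13, IGFBP6 by -5.76, MSN by -4.89, CHAC1 by -4.08, DAPK1 by -4.07, SLC1A4 by -4.02, DEPDC1 by -3.96, S100P by -3.62, SLC6A9 by -3.56 and FAM129A by -3.10. It was also toward LNCaP for CDC25C by -3.06, HERC5 by -3.01, PCK2 by -2.99, DDIT3 by -2.92, OASL by -2.78, NDC80 by -2.45, IFIT1 by -2.44, ASS1 by -2.41, MAPRE2 by -2.39 and IFIT3 by -2.30. Smaller changes toward LNCaP were those of GDF15 by -2.13, MOSC1 by -2.03, DTL by -1.70, BBC3 by -1.68, SLC7A5 by -1.27, RFC3 by -1.18 and NR3C1 by -1.001. The fitted values of IGFBP6 and MSN rest on few counts in abl. The fitted value for MGP was -11.34, which is no bound, since the abl siFOXA1 group had 0 counts.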

How the results depend on the processing

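Counts of genes higher or lower in abl under siFOXA1 and under siControl were within 1.5 times of the values above under other scalings, other filters, DESeq2's Wald test, a fit of fewer libraries and each library left out. Leaving out 1 library gave 4068 to 4917 higher and 4038 to 4990 lower under siFOXA1, and a change called toward higher for 2057 to 2692 and toward lower for 1866 to 2207. Asking for an adjusted p below 0.01 gave changes toward higher for 1739 and toward lower for 1478 genes, and 545 narrowed, 236 widened and 112 reversed differences. Asking for a log2 difference of at least 1 gave 1410 higher and 1791 lower under siFOXA1. The classes depend on the fold by construction. At a log2 difference of at least 2 they held 1165 kept, 335 narrowed, 188 widened, 109 lost, 69 gained, 39 reversed and 251 undecided genes. With no fold needed they held 4634 kept, 1261 narrowed, 625 widened, 1411 lost, 1046 gained, 682 reversed and 2525 undecided genes. Undecided genes, which fitted none of the other classes, numbered 790 to 981 with 1 library left out and 196 with a filter of at least 1 CPM in 4 libraries, which tests fewer genes. Widened genes numbered 275 to 363 with 1 library left out. Without the first siControl library of both lines, an alternative chosen after seeing the data, 236 were widened and 1063 undecided, and 122 of the 199 gained genes were still among the gained. Of 198 results for single named genes, 174 kept their direction and their side of the threshold in every setting run, and no direction reversed. The other 24 changed their side of the threshold in at least 1 setting.

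The library numbers were checked as a pairing. The deviations of same-numbered libraries correlated at -0.18 to 0.53 between groups. The correlation was 0.53 between the siControl groups and 0.11 between the siFOXA1 groups. Not every pair of groups passed 0.1, and the labels do not say what a number marks, so the samples were not taken as paired. With the replicate block 4750 genes were higher and 4871 lower under siFOXA1, and 2904 and 2362 in the change. Tying peaks to genes within 1 kb or 50 kb was not run, because the peaks are on hg19 and no gene positions of that build were used here. With 2 libraries a group, and 9092597 reads in the shallowest, the precision of low genes is limited.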

Other observations

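Clustered gene families, picked after their values were seen and given with no test of the family, showed different patterns. Of 9 tested HOXC genes, homeobox factors that pattern the body axis, 7 were higher and 1 lower in abl under siFOXA1, with a median log2 difference of 1.51, against 3 and 3 and a median of 0.14 under siControl. The change was called for 7 of them. HOXC8 went from a log2 difference of 0.14 to 3.60, with mean levels of 0.488 CPM in LNCaP and 5.93 CPM in abl under siFOXA1, and HOXC6 from -0.20 to 1.401. Of 9 tested HOXA genes 8 were higher in abl in both conditions, with medians of 2.43 under siFOXA1 and 2.68 under siControl, and HOXA13 widened from 5.73 to 6.98. Of 7 tested HOXB genes 1 was higher and 5 lower under siFOXA1, against 2 and 4. Protocadherin genes, which encode neuronal adhesion molecules and share sequence, were lower in abl in both conditions: 13 of 16 in the beta cluster under siFOXA1 and 15 under siControl, with medians of -2.86 and -3.04, and 16 of 20 in the gamma cluster in each.

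By chromosome, the median line difference was alike in both conditions. The symbols of 14760 tested genes (94.9%) matched the RefSeq table. On chromosome 9 the median was -0.44 under siFOXA1 and -0.44 under siControl over 599 genes, with 62.3% lower and 11% higher in abl under siFOXA1. On chromosome 18 it was -0.52 and -0.40 over 200 genes, with 65.5% lower. On chromosome 2 it was 0.25 and 0.23 over 940 genes, with 46.5% higher, and on chromosome 4 it was 0.19 and 0.21 over 550 genes. The median change per chromosome ran from -0.07 to 0.16.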
